A study of Mus musculus with 10 samples.

Results

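Cathepsins are the proteases of the lysosome, and cystatin C is a secreted inhibitor of the cysteine cathepsins. RNA of 9 cathepsin genes (Ctsa, Ctsb, Ctsc, Ctsd, Ctsh, Ctsk, Ctsl, Ctss and Ctsw) and of Cst3, which encodes cystatin C, was examined in mouse tumors, by gene name, as 10 of the 36009 genes measured. The tumors were grown under the skin from CT26, a colorectal carcinoma line of BALB/c mice, in wild-type female BALB/c mice. The study's methods describe young adult mice, and the labels give no age for a single animal. Most of each tumor was removed by surgery, and a hydrogel that releases poly(I:C), a synthetic double-stranded RNA, was then laid on what remained. The resected piece was stored for polyA RNA sequencing, so none of the 10 libraries had met poly(I:C). By later outcome, 6 tumors were from responders (complete regression) and 4 from non-responders (growth without delay).

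Each library is 1 piece of 1 tumor, and all tumors come from 1 transplanted line in an inbred host. Total estimated counts were 29065126 to 38042544 in responders and 23374649 to 32986456 in non-responders, and the 10 genes together held 0.499% to 0.734% of the counts of a tumor. Of 9 markers of colorectal epithelium, 5 were too low to test, among them Epcam with 3 to 19 counts, Krt8 with 0 to 14 and Krt18 with 0 to 3. The other 4 were detected, with 454 to 1865 counts of Krt20, 98 to 175 of Cdh17, 79 to 233 of Cdh1 and 13 to 40 of Cdx2, and had negative log2 fold changes (responders over non-responders, median -0.70) that did not pass. Of 10 macrophage markers, 7 were higher in responders and none was at 0, and their summed level was 3076 to 4609 CPM (the count of a gene scaled to the normalized total of its library) in responders against 2138 to 2900.05 CPM in non-responders. Markers of other tissues were also read in summed level, skeletal muscle with 493 to 1345 CPM in responders against 362 to 489.5 CPM (3 of 7 called higher), mast cells with 50.4 to 176.5 against 27.1 to 58.1 CPM (2 of 6 called higher) and adipocytes with 21.7 to 68.6 against 11.5 to 29.5 CPM. Over all genes tested in the edgeR fit given below, 4.71% were called higher and 3.35% lower. The groups overlapped for mast cells and adipocytes and did not for skeletal muscle. Their part in the results below was not tested. Each gene is also given relative to the macrophage markers, and in bulk tissue fewer cells of a type and less RNA per cell cannot be told apart.

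Most cathepsins are cysteine proteases that are made as inactive precursors, carried to the endosome and lysosome on mannose 6-phosphate receptors, and activated there by acid and by other proteases. Besides breaking down proteins in general, they trim the invariant chain that blocks the groove of MHC class II molecules. They also activate several serine proteases of cytotoxic and mast cell granules, and degrade matrix when they are secreted. Macrophages and dendritic cells are rich in several of them, and cystatin C binds and blocks those that leave the lysosome.

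The family did not move as one. In responders, 5 of the 10 genes were higher than in non-responders (Ctsw, Ctss, Ctsc, Ctsh and Cst3), 1 was lower (Ctsl), and 4 (Ctsa, Ctsb, Ctsd and Ctsk) did not pass the threshold of an adjusted p under 0.05 (edgeR quasi-likelihood test, Benjamini-Hochberg over 16041 genes). Among all genes tested, 4.71% were called higher and 3.35% lower. The median log2 fold change of the 10 genes was 0.34, beside -0.01 over all genes tested. In each of the 6 genes called, the responders and the non-responders did not overlap in CPM. Over all genes tested, every responder lay above every non-responder in 5.84% and below in 4.55%. At an unadjusted p under 0.05, 7 of the genes were higher and 1 was lower, beside 29.1% of all genes tested in either direction.

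The calls of higher genes depended on single tumors. With 1 tumor left out, no gene was called higher without responder 2, responder 3, non-responder 1, non-responder 3 or non-responder 4. In those edgeR fits 7 genes were higher at an unadjusted p under 0.05, and 6 without non-responder 1, beside 22.4% to 26.4% of all genes tested in either direction. The number called higher was 1 without responder 1 (Cst3) or responder 5 (Ctsh), 3 without responder 6 (Ctsc, Ctsh and Cst3), 5 without non-responder 2 and 6 without responder 4. The sign of the difference was kept in each of these fits by 9 genes, and Ctsd changed sign without responder 4, at a log2 fold change of 0.01.

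**Figure D1:**
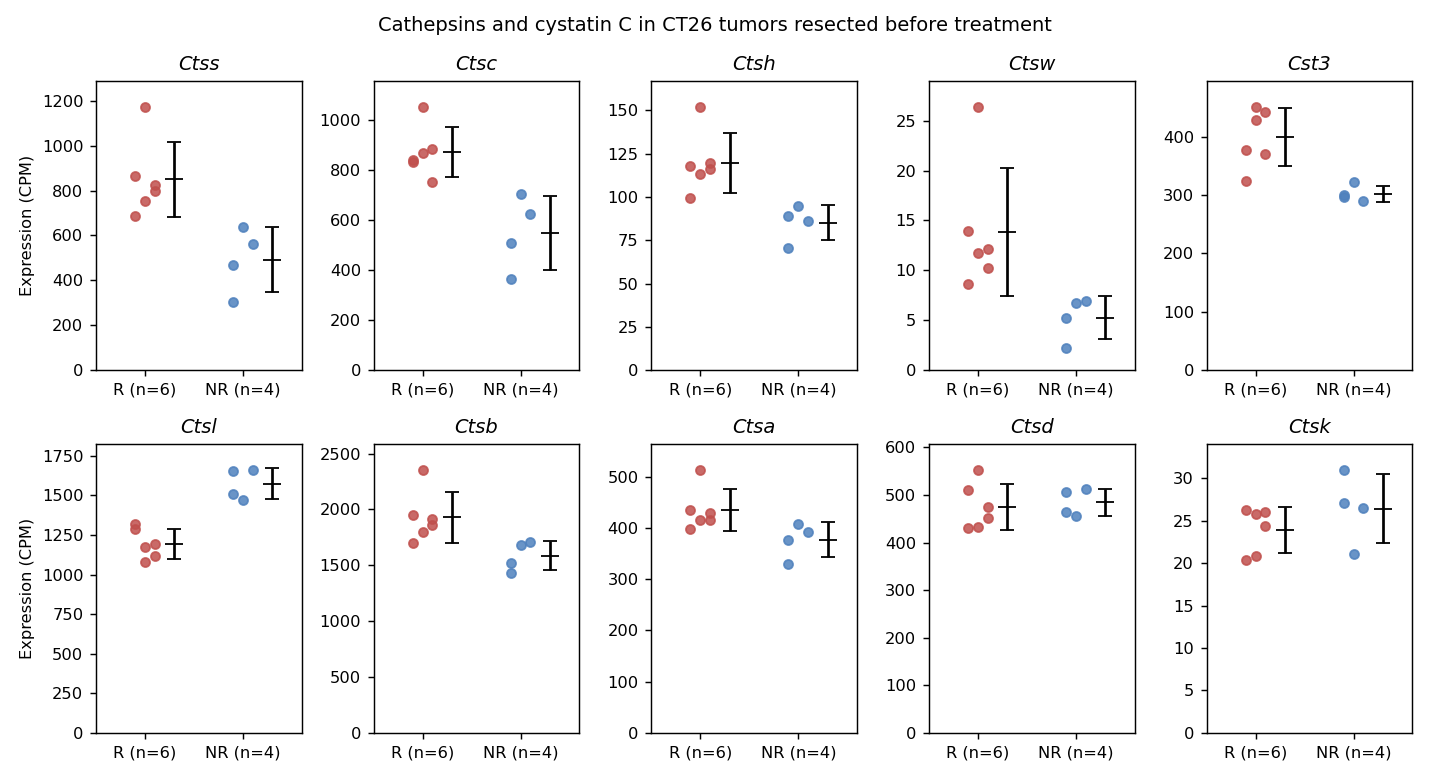
Expression in CPM (linear axes from 0) of the 10 genes in 6 responders (R, red) and 4 non-responders (NR, blue), 1 point per tumor, with the mean and SD in black beside the points. The groups do not overlap for Ctss, Ctsc, Ctsh, Ctsw, Cst3 and Ctsl, and Ctsl is the 1 of these with the non-responders on top.

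Cathepsin S and cathepsin L are the endopeptidases known for the last step of invariant chain removal, cathepsin S in macrophages, dendritic cells and B cells and cathepsin L in the cortex of the thymus. Ctss (chr3:95526786-95556403, plus strand, GRCm38) measured 688, 811 and 1170.4 CPM in the lowest, median and highest responder. In non-responders 1 to 4 it measured 303, 636, 563 and 467 CPM. The lowest responder therefore stood above the highest non-responder, and responder 5 and non-responder 1 were the extremes. The means were 849.7 ± 168.4 (SD, n = 6) and 492.2 ± 143.8 CPM (SD, n = 4), a 1.73-fold difference with a log2 fold change of 0.79 ± 0.20 (SE, adjusted p = 0.0401, edgeR). With 1 tumor left out, the adjusted p of Ctss ran from 0.0251 to 0.0989 and was under 0.05 without responder 4 or non-responder 2 and above it without any of the other 8 tumors.

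Ctsl (chr13:64359337-64370890, minus strand) went the other way. It measured 1076, 1185 and 1320.1 CPM in the lowest, median and highest responder and 1651, 1468, 1659.9 and 1512 CPM in non-responders 1 to 4. All 4 non-responders were above all 6 responders, and the tumor with the most Ctss, responder 5, had the least Ctsl. Means were 1194.6 ± 94.4 (SD, n = 6) and 1572 ± 97.4 CPM (SD, n = 4). Ctsl was 1.32-fold higher in non-responders, with a log2 fold change of -0.40 ± 0.07 (SE, adjusted p = 0.0222, edgeR). It had the lowest adjusted p of the 10 genes and was lost as a call without responder 3 (0.0566), non-responder 1 (0.0556) or non-responder 4 (0.0584).

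Read per length, the balance of both endopeptidases differed between the groups. The ratio of Ctss to Ctsl in CPM per kilobase (kb) of transcript was 0.778 to 1.58 in responders, with a mean of 1.05 ± 0.28 (SD, n = 6). In non-responders 1 to 4 the ratio was 0.267, 0.630, 0.494 and 0.449. The ranges did not meet, and the ratio was given no test since it combines 2 genes already tested. The annotation places an antisense gene, Gm47123, over 1742 exon bases of Ctsl, and the pseudogene Gm49230 over 395; the pseudogene had 0 counts in every tumor, and Gm47123 had no row in the table used here.

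Cathepsin C and cathepsin H act at the ends of proteins. Cathepsin C, also called dipeptidyl peptidase 1, removes pairs of residues and so activates granzymes and mast cell chymases, and cathepsin H is an aminopeptidase. Ctsc (chr7:88278085-88310888, plus strand) measured 755, 857 and 1052 CPM in the lowest, median and highest responder, and 364, 706, 624 and 509 CPM in non-responders 1 to 4. It was 1.59-fold higher in responders (log2 fold change 0.67 ± 0.16 SE, adjusted p = 0.0360). Non-responder 1 was the lowest tumor for Ctsc as for Ctss, and without it the log2 fold change of Ctsc was 0.52 (adjusted p = 0.0631). Its adjusted p was under 0.05 without responder 4, responder 6 or non-responder 2 and up to 0.0946 without any of the other 7 tumors.

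Ctsh (chr9:90054152-90076089, plus strand), like Ctsc, did not overlap between the groups. The lowest, median and highest responder had 99.3, 117 and 151.8 CPM, against 70.7, 94.7, 86.4 and 88.9 CPM in non-responders 1 to 4. The gap between the groups was small next to their ranges, from 94.7 to 99.3 CPM. Ctsh was 1.41-fold higher in responders (log2 fold change 0.49 ± 0.11 SE, adjusted p = 0.0330). The call was lost without responders 1, 2 or 3 or without non-responders 1, 3 or 4, with an adjusted p of up to 0.0805.

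Ctsw encodes cathepsin W, a cysteine cathepsin of cytotoxic T cells and NK cells. Ctsw (chr19:5465043-5468507, minus strand) had the lowest level per length and the largest estimated fold difference of the 10 genes. It measured 8.61, 12.0 and 26.3 CPM in the lowest, median and highest responder and 2.18, 6.72, 6.94 and 5.25 CPM in non-responders 1 to 4, which is 54 to 941 estimated counts over the 10 tumors. The groups did not overlap, and responder 5 stood apart from the next responder, at 14.0 CPM. Ctsw was 2.63-fold higher in responders, with a log2 fold change of 1.39 ± 0.36 (SE, adjusted p = 0.0432) and a 95% interval of 0.60 to 2.19. Without responder 5 the log2 fold change was 1.11 (adjusted p = 0.0566). The call stood without responder 4 or non-responder 2 and was lost without any of the other 8 tumors, with an adjusted p of up to 0.102, and limma-voom gave 0.0576 with all tumors.

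Markers of the lymphocytes that carry cathepsin W are given beside it. Of 7 markers of CD8 and other cytotoxic lymphocytes, 2 were called higher in responders, beside 4.71% of all genes tested. All 7 had a positive log2 fold change (median 1.33) and an unadjusted p under 0.05 in edgeR. Their summed level was 132.8 to 345 CPM against 36.0 to 143.8 CPM, which overlap. Of 6 NK cell markers, 5 were tested and 2 were called higher. All 5 were positive (median 1.01) at an unadjusted p under 0.05 in edgeR, beside 29.1% of all genes tested in either direction. The sum of the NK cell markers was 52.6 to 104.6 CPM against 14.3 to 45.1 CPM, which do not overlap. Among the NK markers Klra8 was at 0 or 1 count, and no marker of either list was at 0 in every tumor. The part of these cells in the Ctsw difference was not tested.

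Cystatin C is the inhibitor in the group and has no protease activity. Cst3 (chr2:148871722-148875692, minus strand) measured 325, 404 and 450.4 CPM in the lowest, median and highest responder and 299, 322, 290.1 and 297 CPM in non-responders 1 to 4. Its highest values were in responders 2 and 3, not in responder 5, and responder 1 was almost level with non-responder 2. Cst3 was 1.32-fold higher in responders (log2 fold change 0.40 ± 0.09 SE, adjusted p = 0.0317). It lost its call without responders 2, 3 or 5 or without non-responders 1, 3 or 4, with an adjusted p of up to 0.0846. The inhibitor and 4 of the proteases were thus higher in the same group, but the inhibitor peaked in another tumor than the proteases. The ratio of Ctss to Cst3 per kb was 1.06 to 1.73 in responders and 0.643, 1.25, 1.23 and 0.997 in non-responders 1 to 4, which overlap.

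Cathepsin B, which can act as an endopeptidase and as a carboxypeptidase, is abundant in most cells. Ctsb (chr14:63122462-63145923, plus strand) measured 1699, 1889 and 2353 CPM in the lowest, median and highest responder and 1430.3, 1681, 1706 and 1523 CPM in non-responders 1 to 4. Of the 6 responders, 5 were above all non-responders, and responder 4 was just below non-responder 3. The log2 fold change of 0.28 ± 0.09 (SE, 95% interval 0.09 to 0.48) did not pass (adjusted p = 0.0688, edgeR), and DESeq2 gave an adjusted p of 0.0188. Without responder 4 edgeR gave 0.33 (adjusted p = 0.0438). Ctsb shares 774 exon bases with Fdft1 on the opposite strand.

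Cathepsin A and cathepsin D belong to other protease classes. Cathepsin A is a serine carboxypeptidase that also protects neuraminidase and beta-galactosidase in the lysosome. Ctsa (chr2:164832873-164841032, plus strand) measured 398, 423 and 513 CPM in the lowest, median and highest responder and 329, 408, 393 and 377 CPM in non-responders 1 to 4. The groups overlapped at 1 responder, and the log2 fold change of 0.21 ± 0.08 (SE) did not pass (adjusted p = 0.112). Ctsa shares 495 exon bases with Pltp on the opposite strand, which was higher in responders (79.9 against 45.3 CPM, adjusted p = 0.0285), and since no strand setting is given, reads from the shared bases cannot be told apart.

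Cathepsin D is the main aspartic protease of the lysosome. Ctsd (chr7:142375911-142388038, minus strand) measured 430.1, 463 and 552 CPM in the lowest, median and highest responder and 505, 456, 512 and 464 CPM in non-responders 1 to 4. All 4 non-responders lay within the range of the responders. The log2 fold change was -0.03 ± 0.08 (SE, adjusted p = 0.843), with a 95% interval of -0.19 to 0.14, which leaves out a difference of the size seen for Ctss, Ctsc, Ctsh or Cst3 in these tumors. Gm49369 lies over 808 exon bases of Ctsd on the same strand, with 4 to 51 counts.

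Cathepsin K is the collagenase of bone-resorbing osteoclasts and is also made by fibroblasts and some macrophages. Ctsk (chr3:95499256-95509362, plus strand), the neighbor of Ctss on the chromosome, measured 20.3, 25.1 and 26.3 CPM in the lowest, median and highest responder. It measured 31.0, 21.1, 26.5 and 27.1 CPM in non-responders 1 to 4. Non-responder 1, the lowest tumor for 6 of the 10 genes, was the highest for Ctsk. The difference did not pass (log2 fold change -0.14 ± 0.11 SE, adjusted p = 0.421, 95% interval -0.38 to 0.10). Of 8 fibroblast markers, 1 was called lower in responders, beside 3.35% of all genes tested. Their sum of 5585 to 6674 CPM in responders overlapped 4737 to 7712 CPM in non-responders. Of 7 osteoclast markers, 5 were tested and 1 was called lower in responders, Mmp9 (log2 fold change -0.68, adjusted p = 0.0443, edgeR). The sum of the 7 was 262.6 to 323 CPM in responders and 304.7 to 415.5 CPM in non-responders. Acp5 had 1374 to 4878 counts and Ocstamp 260.4 to 920.1, while Calcr had 0 to 2 and Oscar 1 to 11.

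**Figure D2:**
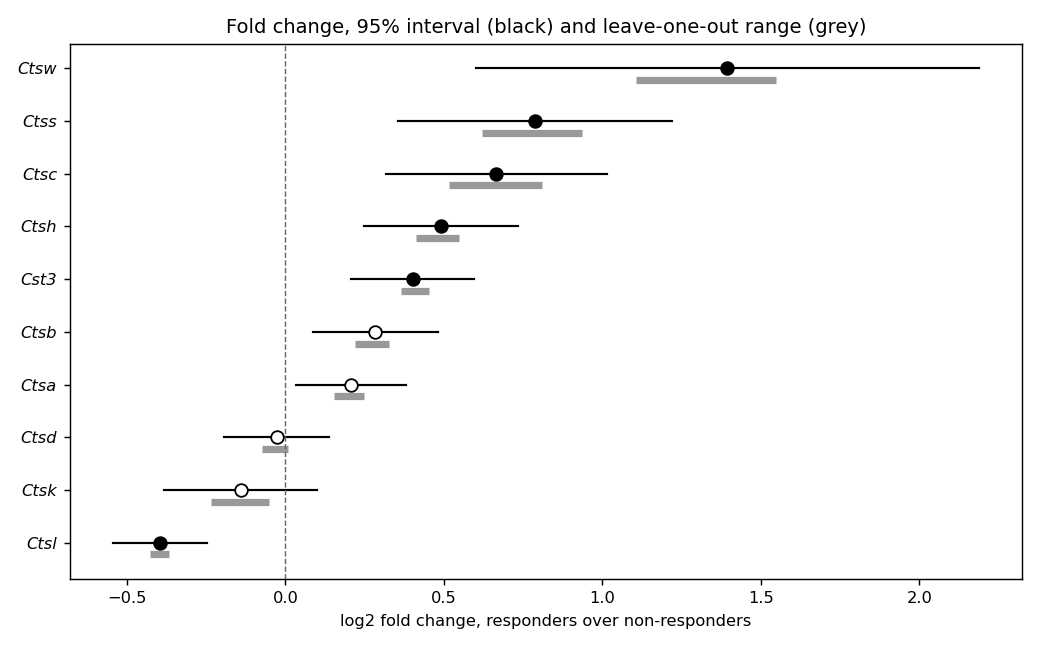
The log2 fold change of each gene (responders over non-responders) with its 95% interval (black line) and the range of the estimate with each of the 10 tumors left out in turn (grey bar); filled points have an adjusted p under 0.05. The estimates run from -0.40 for Ctsl to 1.39 for Ctsw, and the grey bar reaches both sides of 0 for Ctsd alone.

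Levels were compared between genes as CPM per kb of the best supported coding transcript, averaged over the 10 tumors. Ctsl was first at 682.8, followed by Ctss at 522, Cst3 at 419, Ctsb at 378, Ctsc at 299, Ctsd at 225, Ctsa at 162, Ctsh at 65.5, Ctsk at 16.5 and Ctsw at 8.39. Against 16035 genes ranked in the same way, Ctsl was in place 97, Ctss in 133 and Cst3 in 164. The order of the first pair by group mean was not the same in each group. In responders Ctss had 627 and Ctsl 606 CPM per kb, and in non-responders Ctss had 363 and Ctsl 798. Among single responders, Ctss exceeded Ctsl in responder 3 and responder 5 alone (ratios of 1.07 and 1.58). In non-responders Ctsl exceeded Ctss in every tumor. At the other end, Ctsk was in place 5127 and Ctsw in 7813.

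Not all neighbors kept this order in every tumor. Ctsb exceeded Ctsc in 10 of 10 tumors, and the order from Ctsd through Ctsa and Ctsh to Ctsk also held in 10 of 10. Ctsl exceeded Ctss in 8 of 10, Ctss exceeded Cst3 in 8, Cst3 exceeded Ctsb in 8, and Ctsc exceeded Ctsd in 8. The order of those neighbors thus differed between tumors, and for Ctsl and Ctss the exceptions were responders alone. These orders were not tested. Ctsk exceeded Ctsw in 9. The place of Ctsl also depends on its length, since its transcripts differ and their mix is not known here. With the union of all annotated exons (6489 in place of 1971 bases) its level was 207, below Ctss at 520.4, Ctsb at 296 and Cst3 at 285.

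The share of each gene in the summed CPM per kb of the 10 genes gives the makeup of the group. Ctsl made up 20.7% ± 2.8 of the sum in responders (SD, n = 6), while non-responders had 31.9% ± 3.6 (SD, n = 4). Ctss made up 21.1% ± 2.3 and 14.3% ± 3.3. Ctsb was at 13.8% ± 0.6 and 13.3% ± 0.1, and Ctsa at 5.81% ± 0.13 and 5.90% ± 0.21. Shares of 1 whole are bound to each other and were given no test. They rest on the same transcript lengths, so the size of the Ctsl share depends on its length. With the union of exons its mean level was 207 in place of 682.8 CPM per kb.

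**Figure D3:**
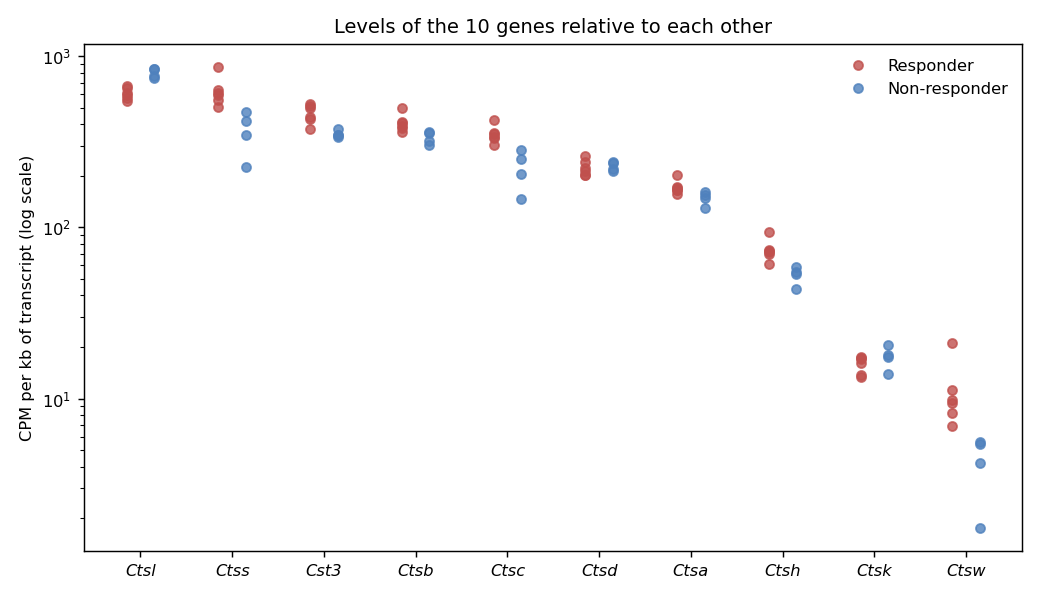
CPM per kb of transcript (log axis) of the 10 genes in each responder (red) and non-responder (blue), ordered by the mean over the 10 tumors. Ctsl, Ctss, Cst3, Ctsb and Ctsc form the upper group, and Ctsk and Ctsw lie lowest, at means of 16.5 and 8.39.

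Since macrophages carry much of the cathepsin RNA of many tissues and their markers were higher in responders, each gene was also read as a log2 ratio to the mean of the 10 macrophage markers, none of which is a cathepsin. The log2 CPM averaged over those markers had a mean of 8.02 with an SD of 0.20 over the 6 responders and of 7.50 with an SD of 0.21 over the 4 non-responders, so that the groups were 0.51 apart. On this scale 5 genes had lower ratios in responders, 2 had higher ratios and 3 did not pass (exact two-sided permutation test over 210 splits, adjusted over the 10 genes). Because the markers themselves were 0.51 higher in responders, a gene that was level in CPM or rose by less has a lower ratio. A lower ratio thus does not show that the gene fell, and its p also holds the difference of the markers.

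The log2 ratio of Ctsl was 1.71 to 2.55 in responders and 3.48, 2.81, 3.12 and 3.05 in non-responders 1 to 4, which did not overlap. The difference was -0.91, and the exact p of 0.00476 is the smallest the design allows (adjusted exact p = 0.00794). Ctsd, level between the groups in CPM, had 0.753 to 0.970 in responders and 1.78, 1.13, 1.42 and 1.34 in non-responders, a difference of -0.55. Ctsk (-0.65, adjusted exact p = 0.0136), Ctsa (-0.31) and Ctsb (-0.24) had lower ratios as well. Ctsd, Ctsa and Ctsb each had an adjusted exact p of 0.00794. In CPM the log2 fold changes of Ctsa and Ctsb were positive, at 0.21 and 0.28.

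Ctss and Ctsw rose by more than the mean of the macrophage markers. Among these markers, Adgre1 (log2 fold change 0.87) and Fcgr1 (0.85) had larger differences than Ctss (0.79), and the others had smaller ones. Ctss had a log2 ratio of 1.62 to 1.84 in responders and 1.04, 1.61, 1.56 and 1.35 in non-responders, a difference of 0.31 (adjusted exact p = 0.00794) that was 0.19 without non-responder 1 (adjusted exact p = 0.0238). Ctsw had a difference of 0.90 (adjusted exact p = 0.00794), which did not pass without non-responder 1 (0.62, adjusted exact p = 0.0510). Ctsk also did not pass without non-responder 1 (-0.47, adjusted exact p = 0.0510) or responder 2 (-0.64, adjusted exact p = 0.0567).

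The other 3 genes did not pass relative to the macrophage markers. Ctsh had a log2 ratio of -1.12 ± 0.04 in responders (SD, n = 6), while non-responders had -1.10 ± 0.05 (SD, n = 4; difference -0.03, adjusted exact p = 0.423). Over all 10 tumors it ran from -1.15 to -1.04. Ctsc differed by 0.19 (adjusted exact p = 0.161) and Cst3 by -0.12 (adjusted exact p = 0.443). These values depend on the markers chosen. Against Csf1r alone, whose own difference did not pass, Ctsc (0.46, adjusted exact p = 0.0397) and Ctsh (0.25, adjusted exact p = 0.0286) were higher in responders. Against Csf1r, Ctsa (-0.03), Ctsb (0.04) and Ctsk (-0.37) no longer passed, with adjusted exact p-values of 0.667, 0.671 and 0.0816.

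**Figure D4:**
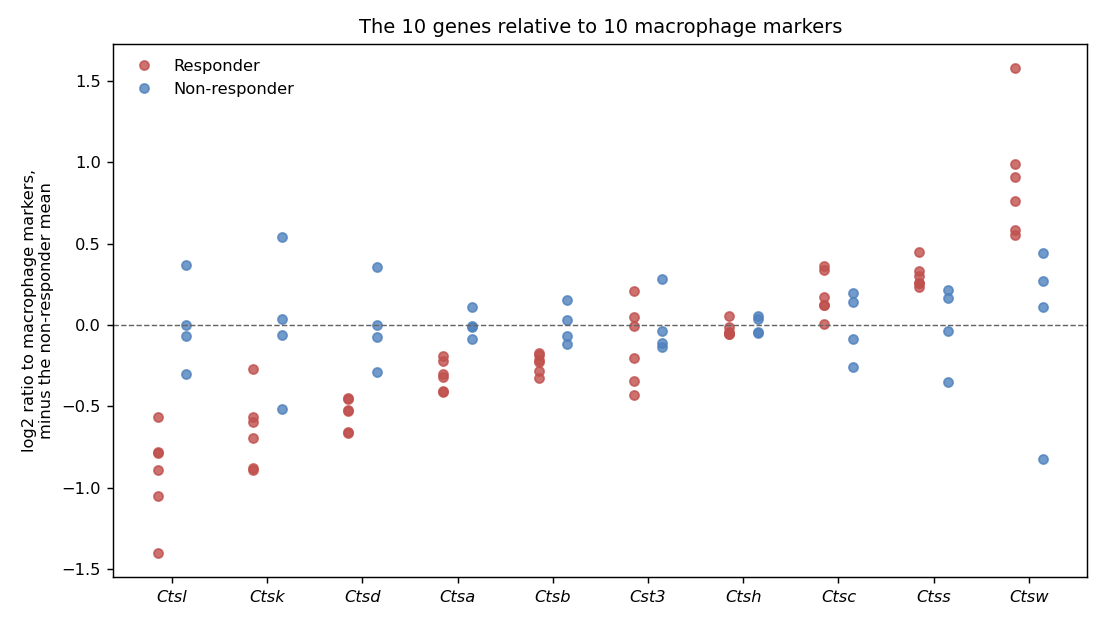
The log2 ratio of each gene to the mean of 10 macrophage markers, 1 point per tumor, shifted so that the non-responder mean is 0 (dashed line). All 6 responders (red) lie below all 4 non-responders (blue) for Ctsl, Ctsd, Ctsa and Ctsb, and above them for Ctss and Ctsw.

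The other genes of the cathepsin system were read from the same edgeR fit in lists by role. Of 114 genes, 95 were tested, 21 were higher in responders and 1 was lower. Over all genes tested, 4.71% were called higher and 3.35% lower, and the counts of each list below stand beside these shares. At an unadjusted p under 0.05 the share of all genes tested was 29.1% in either direction. Of the 16041 genes, DESeq2 called 2602 and limma-voom 1082. Among 5 other cathepsins, 4 were tested and 0 passed in edgeR, with 2 at an unadjusted p under 0.05 and a median log2 fold change of 0.20; DESeq2 called 1 and limma-voom 0. The one with the smallest p was Ctso, a ubiquitous cysteine cathepsin, at 57.1 ± 5.2 CPM in responders (SD, n = 6), while non-responders had 48.3 ± 3.4 (SD, n = 4; adjusted p = 0.0572). The 9 placental cathepsins of the mouse, which sit beside Ctsl on chromosome 13, were not tested because they summed to at most 0.24 CPM in any tumor, and Ctsm, Ctsr, Cts3, Cts6, Cts7 and Ctsll3 were at 0 in all of them.

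Inhibitors other than cystatin C did not pass the test. Of 18 cystatins, stefins and serpins, 12 were tested and 0 passed in edgeR, with a median log2 fold change of 0.18. At an unadjusted p under 0.05 there were 7, beside 29.1% of all genes tested in either direction. DESeq2 called 2 higher and 2 lower, and limma-voom 0. Fetub, which encodes the cystatin-family plasma protein fetuin B, had the smallest p, with 5.99 ± 1.24 CPM in responders and 8.88 ± 1.94 in non-responders (adjusted p = 0.0607).

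Of the 9 genes that sort and activate cathepsins, 1 rose and 1 fell (median log2 fold change 0.19). Lgmn, the legumain that cuts cathepsin precursors, measured 700 ± 89 CPM in responders and 516 ± 78 in non-responders (log2 fold change 0.44, adjusted p = 0.0432), and the groups overlapped. Igf2r, the larger mannose 6-phosphate receptor, was lower in every responder than in every non-responder, at 272 ± 20 against 349 ± 44 CPM (log2 fold change -0.36, adjusted p = 0.0330).

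Of 27 other hydrolases of the lysosome and their partners, 9 rose, with a median log2 fold change of 0.24. Man2b1, the lysosomal alpha-mannosidase, measured 240.1 ± 30 against 172 ± 19 CPM (log2 fold change 0.48, adjusted p = 0.0283). Hexa, a subunit of beta-hexosaminidase, had a log2 fold change of 0.37 (adjusted p = 0.0344), and Grn, which encodes progranulin, 0.43 (adjusted p = 0.0360). Among 13 genes of the lysosomal membrane and its transcription factors, 2 rose (Laptm5, found in blood cells, 0.42 and Tmem192 0.29, adjusted p = 0.0391 and 0.0485), and the median was 0.08. Of 17 subunits of the proton pump that acidifies the lysosome, 1 rose, Tcirg1 (0.37, adjusted p = 0.0410), a share near the 4.71% of all genes called higher, and the median was 0.04.

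Cathepsin S prepares MHC class II molecules for loading. Of 8 genes of MHC class II, its invariant chain and its loading, 7 rose and the median log2 fold change was 1.11. H2-Ab1, a class II beta chain, measured 1033 ± 229 CPM in responders and 426 ± 191 in non-responders (log2 fold change 1.28, adjusted p = 0.0330). H2-Eb1, another beta chain, had 1.34 (adjusted p = 0.0372), and H2-DMa, part of the peptide exchange factor, 0.95 (adjusted p = 0.0387). Another list held 8 granule serine proteases, since cathepsin C activates several such proteases. Of these, 5 were tested and 1 rose, the mast cell chymase Cma1 (1.82, adjusted p = 0.0403), with a median of 0.98. With 1 tumor left out, the genes of these lists called higher numbered 1 without responder 1 or responder 2, 4 without responder 5 and 6 without responder 6. In edgeR none was called higher without responder 3 or without non-responders 1, 3 or 4. Over all genes tested, those fits called 17, 16, 366 and 0, in that order.

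**Figure D5:**
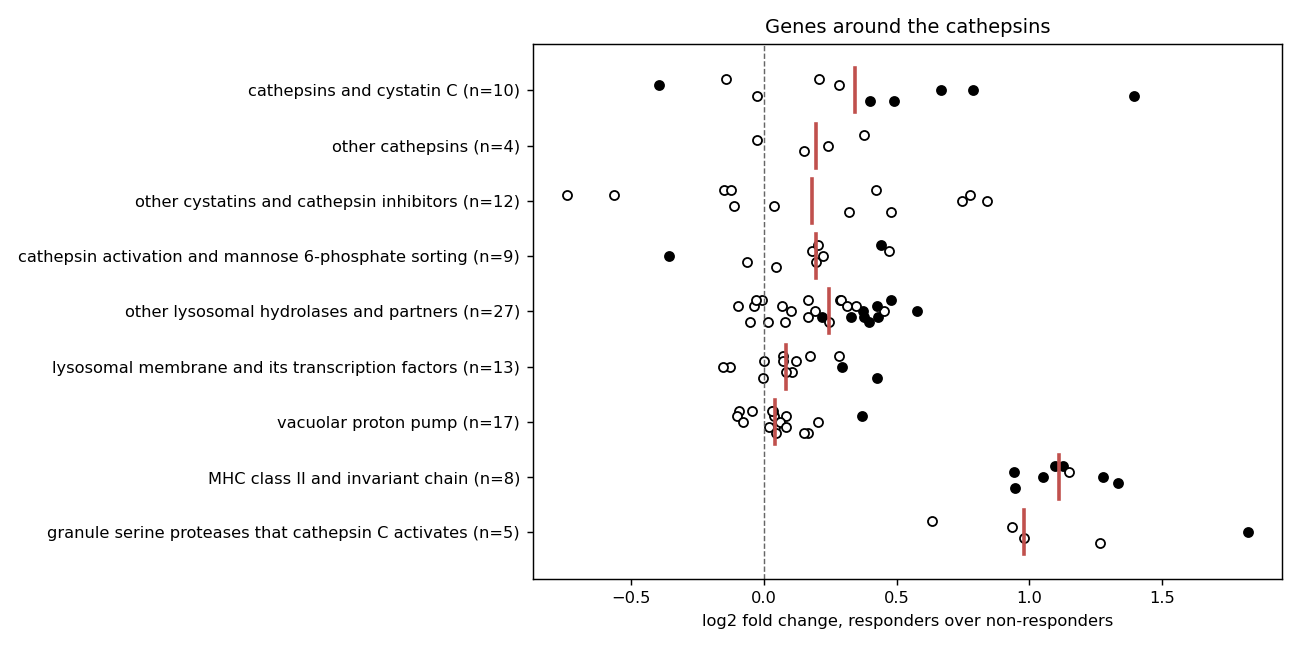
The log2 fold change (responders over non-responders) of each tested gene of the 10 cathepsins and cystatin C and of 8 lists around them, with the median of each list in red and genes with an adjusted p under 0.05 filled. The medians run from 0.04 for the proton pump to 1.11 for MHC class II, and the vertical offset of the points has no meaning.

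The genes whose log2 CPM followed each cathepsin most closely were ranked by Pearson's r over the 10 tumors among 13716 genes. The tumors include both groups, so r holds the difference between groups, and r over the 6 responders is given beside it. Ctss was closest to Cndp2, a dipeptidase of the cytosol (0.996 and 0.992), and Ly86, a partner of a Toll-like receptor homolog (0.994 and 0.982). Ctsc was closest to Fgl2 (0.992 and 0.953) and H2-Ab1 (0.991 and 0.890). Ctsw was closest to H2-DMa (0.994 and 0.989) and Fcer1g, the signaling chain of Fc receptors (0.992 and 0.981).

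Ctsh was closest to the ATP receptor gene P2rx4 (0.994 and 0.986) and Gm21188 (0.993 and 0.979), and Ctsa to Cd48 (0.996 and 0.996) and Pilrb1 (0.985 and 0.975). Ctsb was closest to the kinase gene Syk (0.984 and 0.984) and Rufy3 (0.984 and 0.970). The closest genes of Cst3 were Esr1 (0.972 and 0.954) and Tfeb, a transcription factor of lysosomal genes (0.965 and 0.934). Ctsl was closest to Disp2 (0.980 and 0.868) and Trim32 (0.979 and 0.914), both lower in responders (adjusted p = 0.0207 and 0.0243, edgeR). The lowest leading values were those of Ctsd, for Sidt2 (0.925 and 0.967) and Slc10a3 (0.924 and 0.932), and of Ctsk, for Dnajb2 (0.943 and 0.939) and Arhgap32 (0.933 and 0.883).

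Promoters were read from RefSeq (GRCm38.p6) as the 250 bases before each start for the 7 of the 10 genes with an entry, which leaves out Ctsb, Ctsh and Ctsw. The windows of Ctss (chr3:95526536-95526785, plus strand) and Ctsc (chr7:88277835-88278084, plus strand) are shown in full, since the 2 genes rose together and carry different motifs. Capitals mark GAAANNGAA, a core of interferon-response elements, in Ctss and TTCNNNGAA, the STAT-type element, and GAGGAAGT, a PU.1-type element, in Ctsc, the last on the opposite strand.
Ctss: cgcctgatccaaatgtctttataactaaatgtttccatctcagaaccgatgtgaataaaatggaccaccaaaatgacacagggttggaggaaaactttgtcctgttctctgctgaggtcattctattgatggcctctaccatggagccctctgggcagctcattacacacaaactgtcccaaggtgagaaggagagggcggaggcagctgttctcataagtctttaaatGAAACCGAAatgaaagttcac
Ctsc: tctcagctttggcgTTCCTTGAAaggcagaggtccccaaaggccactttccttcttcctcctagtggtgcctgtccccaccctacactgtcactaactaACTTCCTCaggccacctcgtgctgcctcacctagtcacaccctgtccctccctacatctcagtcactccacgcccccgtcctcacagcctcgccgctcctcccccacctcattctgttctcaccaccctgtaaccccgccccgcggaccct

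The match in Ctss lay 21 to 13 bases before the start, and those in Ctsc 236 to 228 and 151 to 144 bases before it. Over 32851 windows of the same length and on both strands, GAAANNGAA was in 7.13%, TTCNNNGAA in 7.02% and GAGGAAGT in 2.44%. The E-box CACGTG and its longer form TCACGTGA, which contains it and is the type of site that TFEB binds in lysosomal genes, were in 6.02% and 0.785% of windows. Among the members they were in Ctsa, Ctsd and Ctsl, of which Ctsa and Ctsd carried the longer form and Ctsl the shorter alone. The matches are shown in capitals with a few bases around them. The windows that hold the matches of Ctsa and Ctsl lay wholly within the annotated span of their gene, and that of Ctsd lay partly within it. Another Ctsa window, chr2:164832622-164832871, ended just before the annotated span and held none of the motifs.
Ctsa chr2:164833750-164833772 plus strand: gagcaaactgTCACGTGAtgcag
Ctsd chr7:142387909-142387936 minus strand: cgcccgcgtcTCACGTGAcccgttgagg
Ctsd chr7:142388057-142388077 minus strand: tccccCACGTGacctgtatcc
Ctsl chr13:64370741-64370766 minus strand: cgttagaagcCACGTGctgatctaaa

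None of the 5 motifs was found in the windows of Cst3 and Ctsk. A match describes these letters and is not a binding site. Ctsa and Ctsd, with TCACGTGA, were among the 4 genes that did not pass between the groups, as was Ctsk, with no match. Ctsl, with CACGTG alone, was lower in responders, and Ctss and Ctsc, with the other motifs, were higher. Cst3, with no match, was also higher, and so were Ctsh and Ctsw, which had no window. Whether a motif goes with a direction was not tested.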

How the data were processed

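Gene names of the 10 members were matched in the deposited table. Per the study's methods and labels, the authors checked reads with FastQC, estimated transcript abundance with Kallisto and summed it to genes with tximport on mm10 (GRCm38). The authors deposited each value as an estimated count (an expected count summed over the transcripts of a gene), with 45.1% of values not whole (tolerance 0.01), not scaled to depth. Strand setting and annotation release are not given in the sources used here. Reads of genes that share exons are uncertain. The mice are BALB/c and the reference another strain.

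Counts were rounded and fitted in R 4.3.3 with edgeR 4.0.16 (filterByExpr with a minimum count of 10, TMM, quasi-likelihood test, two-sided, Benjamini-Hochberg over 16041 genes, threshold 0.05). The 9633 rows without a gene name (1.04% to 1.23% of counts) stayed in. Log2 CPM used a prior count of 2. DESeq2 1.42.0 and limma-voom (limma 3.58.1) were alternatives, beside other size factors, no filter, the study's CPM filter (0.366 in 3 tumors), unrounded counts and each tumor left out. The fit was tested on simulated data. Numbers of tumors follow accession order and pair nothing, no batch is given, and p-values measure the spread between tumors.

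Gene positions and lengths are from GENCODE on GRCm38. Length is that of the coding transcript with the best support level, then the best APPRIS rank, then the longest. The members, lists, markers and motifs were chosen with earlier results of these data known. All 10 members are named, and from each list up to 3 called genes with the smallest p, or the 1 with the smallest p where none was called.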

Additional observations from a re-analysis of the deposited data

Results flagged for a closer look

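In 3 of 20 sets of values (10 genes in each group), 1 tumor stood apart from the rest of its group by Dixon's gap at the 95% level, where chance gives about 1 in 20. The tumor was responder 5 in each. The sets come from the same tumors, so the 3 flags are not independent of each other. Ctsa was at 512.9 CPM there, with the next responder at 435.4. Ctss was at 1170.4 CPM, with the next at 864.6. Ctsw was at 26.3 CPM, with the next at 14.0. Responder 5 also had the highest mean of macrophage markers, at 8.36 on the log2 CPM scale, and was the highest tumor for 7 of the 10 genes and the lowest for Ctsl. Without it the log2 fold change of Ctss was 0.67 (adjusted p = 0.0618) and that of Ctsw 1.11 (adjusted p = 0.0566), in edgeR.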

How the results depend on the processing

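With median-of-ratios size factors, no filter, the study's filter or unrounded counts, 5 members were higher and 1 lower, as with TMM. DESeq2 gave 6 and 1 and limma-voom 4 and 1. DESeq2 called 2602 genes in all against 1293, and 36 genes of the lists higher and 3 lower against 21 and 1; the other tools and filters stayed within 1.5 times. With each tumor left out, 0 to 6 members were higher and 0 to 1 lower, 0 to 31 genes of the lists were higher and 0 to 1 lower, and 0 to 1897 genes were called in all. Without non-responder 4, edgeR called 0 genes, with 4106 at an unadjusted p under 0.05. Ctsl was not called without responder 3, non-responder 1 or non-responder 4, fits with fewer samples; the cause was not tested. Without responder 4 Ctsd changed sign (0.0085), within a range of -0.075 to 0.0085 over the tumors left out. Against macrophage markers, 5 to 7 members passed with 1 tumor left out. Against Csf1r alone 6 passed, and Ctsb (0.041), Ctsh (0.25) and Cst3 (0.15) changed sign.

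A length from the union of exons, an alternative chosen after seeing the data, moved the mean level to 87.3 CPM per kb for Ctsa, 296 for Ctsb, 128 for Ctsc, 204 for Ctsd, 23.5 for Ctsh, 207 for Ctsl and 285 for Cst3. Responders and non-responders are different tumors, so the design has no pairs. The labels give no replicate numbers, and the numbers used here are in accession order. With 6 and 4 tumors the exact test cannot go below 0.00476. Ctsw, at 54 to 941 counts, has the least depth of the 10 genes, and its interval is the widest.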

Other observations

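Among the 10 genes themselves, log2 CPM of cystatin C followed that of the proteases to different degrees. The tumors share group and macrophage content, so these values are a description. Ctss and Ctsw had r = 0.987 over 10 tumors and 0.977 over the 6 responders, and Ctss and Ctsc 0.973 and 0.784. Ctss and Cst3 had 0.702 over 10 tumors and 0.153 over the 6 responders. Ctsl and Cst3 had -0.932 and -0.820, and Ctsl and Ctss -0.849 and -0.603.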
